A study of Mus musculus with 18 samples.

Results

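CTCF binding was examined at 9 genes of the machinery that silences endogenous retroviruses: Trim28, Setdb1, Morc2a, Kdm1a, Atf7ip, Mphosph8, Pphln1, Sumo2 and Zfp809. A CTCF region counted as belonging to a gene when any of its summits lay inside the gene or within 10 kb of it, on the mm10 build. By this rule 30 of 59372 regions in SKO, 35 of 62238 in TKO and 41 of 71075 in WT belonged to the 9 genes. Regions were assigned to the genes by position alone, while the 9 genes themselves were chosen with earlier results of these data known.

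The study profiled CTCF by chromatin immunoprecipitation and sequencing (ChIP-seq) in mouse embryonic stem cells of 3 genotypes. SKO cells lack Dnmt1, Dnmt3a and Dnmt3b and also Tet1, Tet2 and Tet3, TKO cells lack Tet1, Tet2 and Tet3, and WT cells are unmodified. Each genotype has 3 ChIP and 3 input samples, and all were grown with LIF in serum replacement medium on irradiated mouse embryonic fibroblasts. The peaks were called on the 3 replicates pooled, so there is 1 list per genotype and no spread between replicates. No test between genotypes could be made, and "missing" below says only that a list holds no overlapping region. Each genotype is labelled as one line, so the missing enzymes and other differences between lines cannot be told apart. Whether the 3 replicates are separate cultures is not stated in the labels. A list of CTCF regions does not measure expression, so the labelled cell type could not be checked against its markers.

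Endogenous retroviruses are remnants of past infections that stem cells keep silent largely through methylation of histone H3 at lysine 9. KRAB zinc finger proteins such as ZFP809 bind retroviral DNA and recruit TRIM28, a scaffold protein. TRIM28, modified with SUMO, brings in the H3K9 methyltransferase SETDB1, which ATF7IP stabilises in the nucleus. The HUSH complex, which holds MPP8 (encoded by Mphosph8) and periphilin (Pphln1), works with the ATPase MORC2A, and KDM1A removes methyl groups from H3K4. CTCF is a zinc finger protein that anchors chromatin loops with cohesin, and CpG methylation inside its motif can hinder its binding. A CTCF region near one of these genes does not show that CTCF controls it.

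The DNA just before the annotated start is shown for the 2 members whose RefSeq promoter window held a CTCF summit: Kdm1a, with the strongest region of all members in each list, and Atf7ip, with a region in WT alone. Both come from RefSeq (GRCm38.p6, the assembly of mm10) and stop before the outermost annotated start of the gene. The Kdm1a stretch is chr4:136602788-136602973 on the minus strand, with 14 CpGs in 186 bases, and the capitals mark AGGGGGCGC, the core of the CTCF consensus. The Atf7ip stretch is chr6:136518601-136518788 on the plus strand, with 15 CpGs in 188 bases, and the capitals mark the 21 bases centred on the WT summit.
Kdm1a: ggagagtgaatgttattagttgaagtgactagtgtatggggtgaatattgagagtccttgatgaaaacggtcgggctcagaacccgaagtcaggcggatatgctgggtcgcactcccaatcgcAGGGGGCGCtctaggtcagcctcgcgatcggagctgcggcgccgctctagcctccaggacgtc
Atf7ip: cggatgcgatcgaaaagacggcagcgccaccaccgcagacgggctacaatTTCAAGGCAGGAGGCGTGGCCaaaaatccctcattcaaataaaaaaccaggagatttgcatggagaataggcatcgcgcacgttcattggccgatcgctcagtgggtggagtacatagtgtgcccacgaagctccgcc

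In the Kdm1a stretch the middle of AGGGGGCGC lay 5 bases from the SKO summit, 1 base from the TKO summit and 4 bases from the WT summit. Both strands were searched, for AGGGGGCGC and for CCACCAGGG, the part of the consensus just before it, which overlaps it by the letters AGGG. The Kdm1a stretch held the first motif once and the other not at all, and the Atf7ip stretch held neither. AGGGGGCGC occurred in 9.98% of the 1893 RefSeq promoter windows (250 bases before to 50 after a start) with a WT summit and in 0.711% of the 30958 without one, which is 1.25% of all 32851 windows. For CCACCAGGG the shares were 3.01% with a WT summit, 0.501% without one and 0.645% of all. Most promoter windows that held a WT summit therefore had neither spelling, and a match describes letters, not a measured site. Both spellings were chosen after sequences and matches had been seen: AGGGGGCGC was read in the Kdm1a stretch before it was searched for, and CCACCAGGG took the place of a longer, spaced form of the consensus that had been searched first and is not reported here. The match at Kdm1a is therefore a description and supports nothing.

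The values used for each region are the authors' own. Fold enrichment is the ChIP pileup (the number of fragments over the summit) relative to the local background, and −log10 q grades how far the peak caller found the pileup above that background. The strongest region of a gene or list is the one with the highest −log10 q. Median fold was 10.5 in the whole SKO list, 9.84 in TKO and 10.0 in WT, and over the members' regions it was 9.21, 9.19 and 9.28. Whole-number pileups could be recovered from fold and −log10 p, and at the genome-wide background the lowest pileup of any listed summit was 7 in SKO, 8 in TKO and 7 in WT. That background, which depends on sequencing depth among other settings, was 0.778 times the WT value in SKO and 1.03 times in TKO. Pileups are given as solved, without scaling to it, so they are not on the same scale across lists. Intervals given with pileups and shares are exact 95% intervals for counting error alone, since the pooled lists hold no spread between replicates. For pileups, PCR copies were also not marked by molecular identifiers.

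The 9 genes differed widely in how many CTCF regions they held. Mphosph8, a 29.2 kb gene for a chromodomain protein that reads H3K9 methylation (chromosome 14, 56668235 to 56697430), had none in any list. Pphln1 had the most, with 7 in SKO, 8 in TKO and 9 in WT, over the longest window, 114 kb. Per 100 kb of window, WT had 7.89 regions at Pphln1. Sumo2 was the densest, at 15.1, and Atf7ip had 4.46. Over the genes and their flanks, 571 kb in all, there were 5.25 regions per 100 kb in SKO, 6.13 in TKO and 7.18 in WT. The same windows around all protein-coding genes held 3.17 in SKO, 3.32 in TKO and 3.75 in WT. Most member regions had their strongest summit inside the gene itself: 18 of 30 in SKO, 21 of 35 in TKO and 26 of 41 in WT. The genes themselves also made up most of the 571 kb, so these counts show no preference for gene bodies.

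**Figure D1:**
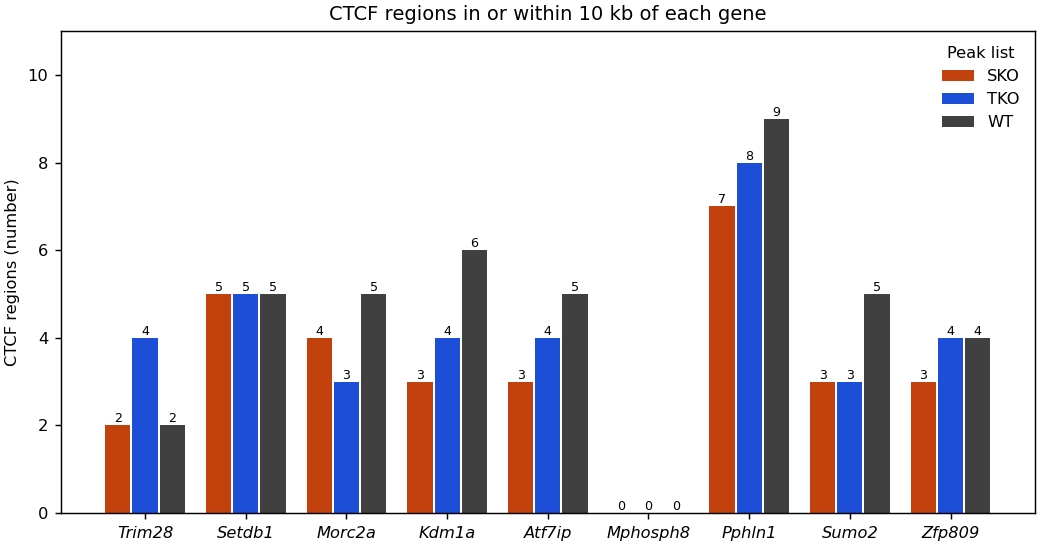
Number of CTCF regions (vertical axis) in or within 10 kb of each of the 9 genes (horizontal axis) in the SKO, TKO and WT lists, which pool 3 replicates each and so have no error bars. Setdb1 has 5 regions in each list, Mphosph8 has 0 in each, and Kdm1a has 3 in SKO, 4 in TKO and 6 in WT.

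Zfp809, the KRAB zinc finger gene whose product recognises the primer binding site of murine leukaemia viruses (chromosome 9, 22225667 to 22254117), carried its regions around its start. The first, at chr9:22224549-22225339 in WT, spans 791 bp and ends before the gene begins. It had 2 summits in every list, with the strongest at fold 11.1 in SKO, 11.2 in TKO and 11.4 in WT. The TKO list gave its stronger summit at 952 bp upstream, whereas the SKO and WT lists gave theirs at 496 and 495 bp upstream. Just inside the gene, WT had regions with summits at 361 bp (fold 9.28, the strongest of the gene in that list) and 1000 bp (fold 6.55) from the start, and TKO had regions at 350 bp (fold 7.05) and 1011 bp (fold 7.45). In SKO a single region with 2 summits, 1022 bp wide and of fold 11.1, spanned both. Its stronger summit, 368 bp from the start, had a pileup of 35 over a local background of 2.24. The first of the 2 regions had 46 over 5.67 in TKO and 50 over 4.49 in WT. These pileups, not scaled between lists, were thus lowest in SKO, where fold was highest. A further region 5.07 kb into the gene in WT had fold 12.2 in SKO, 11.8 in TKO and 9.72 in WT. No Zfp809 region was missing from any list, and the 3 lists differed there in how the signal was divided into intervals.

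Trim28, the scaffold that KRAB zinc finger proteins recruit (chromosome 7, 13024152 to 13031032), had no summit inside its 6.88 kb body in any list. Its strongest WT region lay 8.28 kb upstream at chr7:13015505-13016122, with a pileup of 70 in SKO (54.6 to 88.4), 85 in TKO (67.9 to 105) and 135 in WT (113 to 160). Folds were 9.27 in SKO, 9.69 in TKO and 16.7 in WT, so WT was highest on both measures, with no replicate values to judge the gap by. The pileups are not scaled between lists. A region 0.310 kb past the gene's end in WT, between Trim28 and the ESCRT subunit gene Chmp2a, had fold 9.15 in SKO, 14.4 in TKO and 9.82 in WT.

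TKO had 2 further regions at Trim28 that neither SKO nor WT listed. One lay 3.88 kb upstream at chr7:13020155-13020387, with fold 9.19, −log10 q 19.6 and a pileup of 28 (18.6 to 40.5). The nearest WT region was 4.03 kb away and the nearest SKO region 3.97 kb away. In the decile of the TKO list that holds it, decile 4 counted from the weakest by −log10 q, 10.4% of regions had no SKO region over them and 2.70% had no WT region. The other lay at the start of Chmp2a, 3.69 kb past the end of Trim28, and was weak, at fold 2.65 and −log10 q 2.05. In its decile, the weakest, 62.9% of TKO regions had no SKO region and 41.8% had no WT region.

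Setdb1, which encodes the H3K9 methyltransferase (chromosome 3, 95323525 to 95357202), had the same 5 places listed in SKO, TKO and WT. Its strongest WT region lay past its end, inside the ceramide synthase gene Cers2, at chr3:95317349-95317839, with fold 10.7 in SKO, 9.69 in TKO and 14.1 in WT. Within Setdb1, WT regions lay close together 6.62, 7.52 and 8.65 kb from the start. The middle one had fold 22.3 in SKO, 7.28 in TKO and 9.77 in WT, and pileups of 62 in SKO (47.5 to 79.5), 59 in TKO (44.9 to 76.1) and 63 in WT (48.4 to 80.6). The counting intervals of these pileups, which are not scaled between lists, overlapped. The local background that the peak caller set there was 1.83 in SKO, 7.24 in TKO and 5.55 in WT. The region 6.62 kb from the start in WT was weak in SKO, at fold 5.07, against 9.43 in TKO and 7.71 in WT. Another, 32.2 kb from the start in WT, was weak in TKO, at fold 3.94, against 8.74 in SKO and 7.67 in WT. Its pileups were 31 in SKO, 24 in TKO and 31 in WT, over local backgrounds of 2.66, 5.35 and 3.17.

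Atf7ip, whose product binds and stabilises SETDB1 (chromosome 6, 136518789 to 136610850), differed at its start. WT had a region at chr6:136518519-136518833, over the stretch printed above, with its summit 128 bp upstream of the gene and inside the neighbouring long non-coding RNA gene Gm44140. Its fold was 10.7, its −log10 q 28.4 and its pileup 38 (26.9 to 52.2), and it was missing from SKO and TKO. The nearest TKO region began 0.465 kb away and the nearest SKO region 36.8 kb away. A weaker region 655 bp into the gene in WT had fold 5.69 in TKO and 5.41 in WT and was missing from SKO, so SKO listed nothing at the start of Atf7ip. The strongest WT region of the gene by −log10 q, 37.0 kb from the start at chr6:136555587-136556004, was in every list, with fold 16.0 in SKO, 15.8 in TKO and 14.6 in WT. Past the gene's end, 2 regions inside the neighbouring phospholipase-like gene Plbd1 were also in every list. The nearer had fold 18.2 in SKO, 10.7 in TKO and 6.09 in WT, and the farther 10.5 in SKO, 9.20 in TKO and 15.6 in WT. Pileups, not scaled between lists, were 42 in SKO, 40 in TKO and 26 in WT at the nearer. At the farther they were 27, 28 and 42. The local background at the nearer was 1.37 in SKO, 2.83 in TKO and 3.44 in WT, so its folds differed in both terms.

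Among the HUSH partners, Pphln1 (chromosome 15, 93398345 to 93491913), which encodes periphilin, held all its regions inside the gene and none at its start. The first summit lay 22.4 kb from the start in each of SKO and WT and 22.5 kb in TKO. The strongest WT region, at chr15:93438710-93439057, had fold 9.01 in SKO, 12.9 in TKO and 16.0 in WT. WT regions 62.7 kb (fold 7.26) and 82.4 kb (fold 6.22) from the start were missing from SKO and TKO. TKO alone listed a region 85.9 kb from the start, with fold 4.85 and a pileup of 13 (6.92 to 22.2). The other 7 places were in every list, with folds of 4.69 to 16.0.

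Morc2a, the gene of the MORC family ATPase (chromosome 11, 3649189 to 3690477), shares its upstream flank with the long non-coding RNA gene Tug1. A region in the gap between them, with its WT summit 84 bp upstream of Morc2a at chr11:3648962-3649242, had fold 8.87 in SKO, 9.09 in TKO and 9.31 in WT. The region 8.76 kb into the gene in WT had fold 5.07 in SKO and 9.44 in WT and was missing from TKO, with −log10 q 5.35 in SKO and 18.5 in WT. It was the sole SKO region at the 9 genes with no TKO region. The strongest WT region lay 7.18 kb past the gene's end, at chr11:3697467-3697827, with fold 6.76 in SKO, 10.2 in TKO and 12.7 in WT. A weak WT region 9.34 kb past the end (fold 5.44) was missing from SKO and TKO.

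Sumo2, the gene of a ubiquitin-like modifier that conjugates to TRIM28 (chromosome 11, 115523109 to 115536230), had 3 regions in SKO, 3 in TKO and 5 in WT. Its strongest WT region lay 2.07 kb upstream at chr11:115538067-115538576, with fold 12.8 in SKO, 13.2 in TKO and 14.4 in WT. The next, 4.45 kb upstream in WT, had fold 7.78 in SKO, 5.63 in TKO and 7.28 in WT. Inside the gene, WT regions 9.72 kb (fold 7.71, −log10 q 14.5) and 5.42 kb (fold 4.26, −log10 q 4.42) from the start were missing from SKO and TKO. Between them, a region in all lists had its summit 156 bases apart between SKO and WT and 150 bases apart between TKO and WT.

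Kdm1a, which encodes the H3K4 demethylase LSD1 (chromosome 4, 136550533 to 136602787), had the strongest member region in every list. Its WT interval is chr4:136602685-136603080, over the stretch printed above, with its summit 64 bp upstream of the gene in SKO, 58 bp in TKO and 55 bp in WT. Its fold was 25.4 in SKO, 45.4 in TKO and 31.4 in WT, and its pileup 143 in SKO (121 to 168), 167 in TKO (143 to 194) and 155 in WT (132 to 181). It stood at percentile 97.6 of the SKO list by −log10 q, 99.0 of TKO and 97.5 of WT.

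The weaker Kdm1a regions were listed less evenly. A region 2.74 kb from the start in WT had fold 14.3 in SKO, 15.2 in TKO and 10.5 in WT. Its pileups, not scaled between lists, ran in another order, at 56 in SKO, 86 in TKO and 79 in WT. The local background there was 3.0 in SKO, 4.72 in TKO and 6.61 in WT. The region 6.68 kb from the start in WT had fold 6.45 in TKO and 8.86 in WT and was missing from SKO. WT regions 1.55 kb inside (fold 4.79) and 3.52 kb upstream (fold 3.81), both at −log10 q 7.43, were missing from SKO and TKO. A region 34.0 kb from the start in WT had fold 3.61 in SKO, 4.43 in TKO and 8.35 in WT, with pileups of 8, 16 and 25 and −log10 q of 2.46, 5.78 and 16.6.

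**Figure D2:**
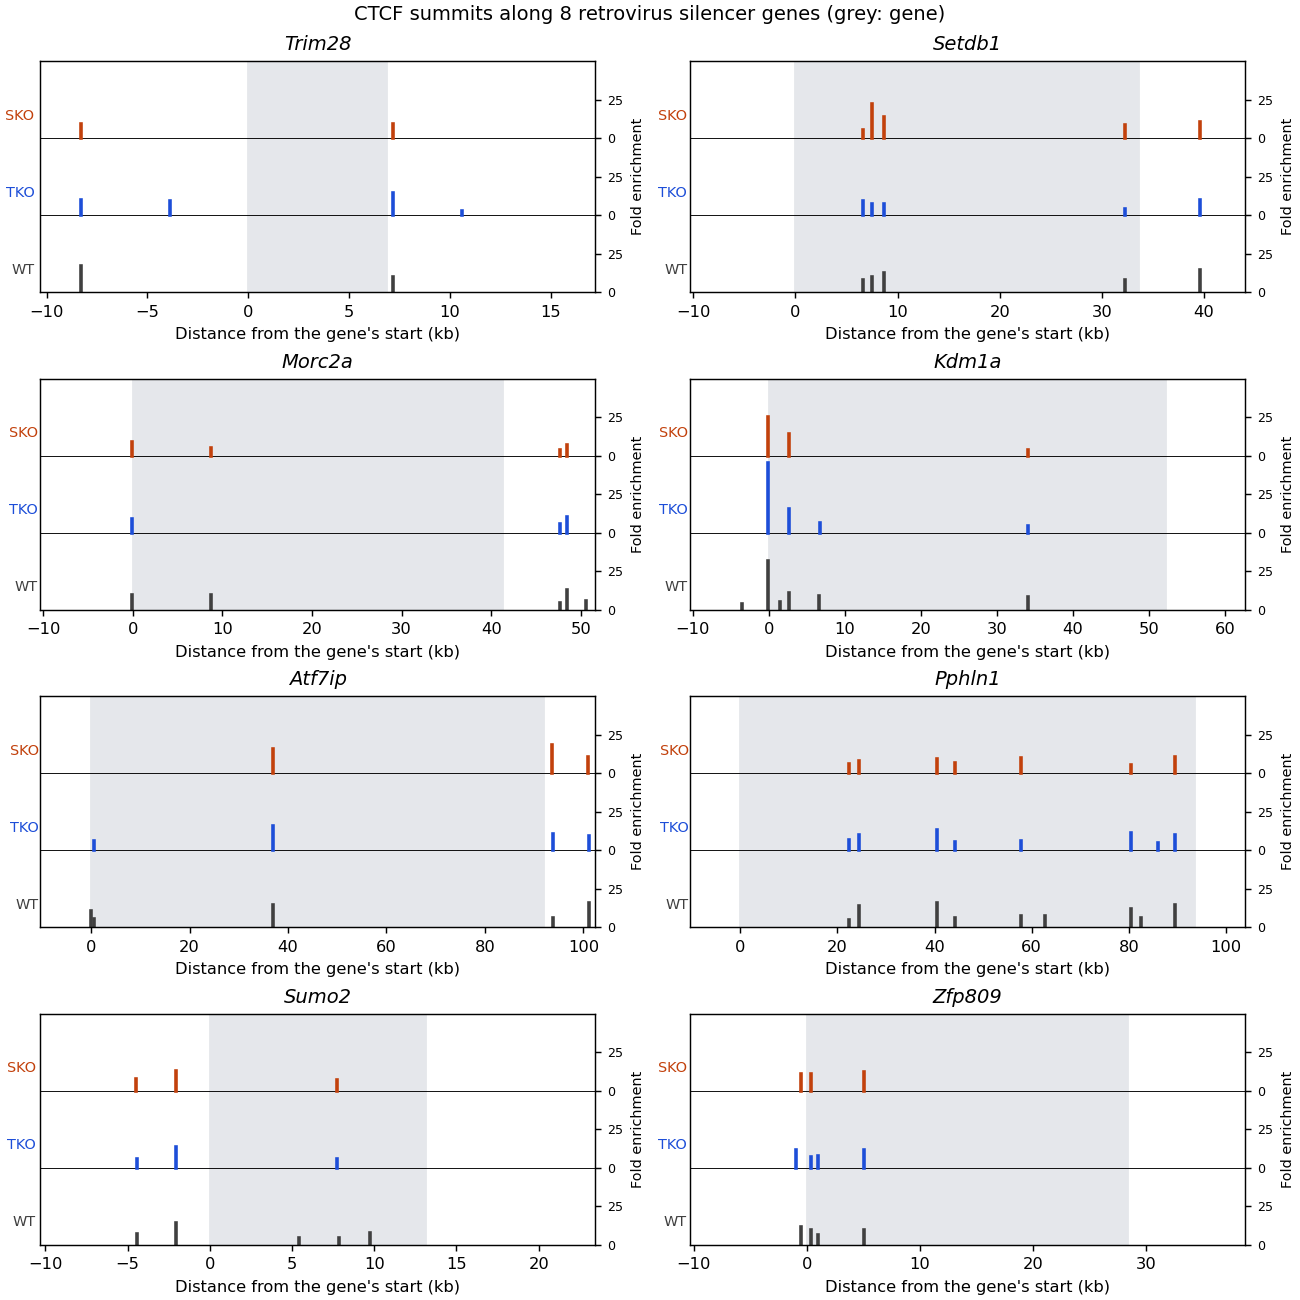
Summit positions of CTCF regions in kb from each gene's start (horizontal axis, negative is upstream, grey band is the gene) for 8 genes, with the height of each bar giving fold enrichment in SKO (top), TKO (middle) and WT (bottom). The Kdm1a start has the tallest bar in each list (25.4, 45.4 and 31.4), and the start of Atf7ip has a bar of 10.7 in WT alone.

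TKO against WT asked what changed without the TET enzymes. TKO lacked 9 of the 41 WT regions at the 9 genes, which is 22.0% (10.6% to 37.6%), and over the whole WT list 19.0% of regions had no TKO region. Among WT regions within 10 kb of any protein-coding gene the share was 18.1%. The 9 were 2 each at Morc2a, Kdm1a, Pphln1 and Sumo2 and 1 at Atf7ip. In the other direction 3 of 35 TKO regions had no WT region, 8.57% (1.80% to 23.1%), beside 7.49% of the whole TKO list and 7.63% near protein-coding genes. They were the 2 at Trim28 and 1 at Pphln1. Both shares at the 9 genes were close to those of the whole lists.

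SKO against WT, which uses the same WT list, asked what changed when the DNMT enzymes were missing as well. SKO lacked 10 of the 41 WT regions, 24.4% (12.4% to 40.3%), beside 21.9% over the whole WT list and 21.0% near protein-coding genes. They were 3 at Kdm1a, 2 each at Atf7ip, Pphln1 and Sumo2 and 1 at Morc2a. None of the 30 SKO regions lacked a WT region. The exact interval for this share ends at 11.6%, and the limit of 3 counts that a count of 0 allows is 10.0%. The shares were 6.59% of the whole SKO list and 6.73% near protein-coding genes.

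SKO against TKO asked what separates the knockouts. SKO lacked 5 of the 35 TKO regions, 14.3% (4.81% to 30.3%), beside 14.5% of the whole TKO list and 14.3% near protein-coding genes. They were 2 at Trim28 and 1 each at Kdm1a, Atf7ip and Pphln1. In the other direction 1 of 30 SKO regions, the one inside Morc2a, had no TKO region, 3.33% (0.0844% to 17.2%), beside 10.4% of the whole SKO list and 10.2% near protein-coding genes. The interval at the 9 genes includes the share of the whole list in each of these 6 counts. The 6 are not separate checks, since 8 WT regions were missing from both knockouts. The intervals also treat regions of the same gene as independent.

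**Figure D3:**
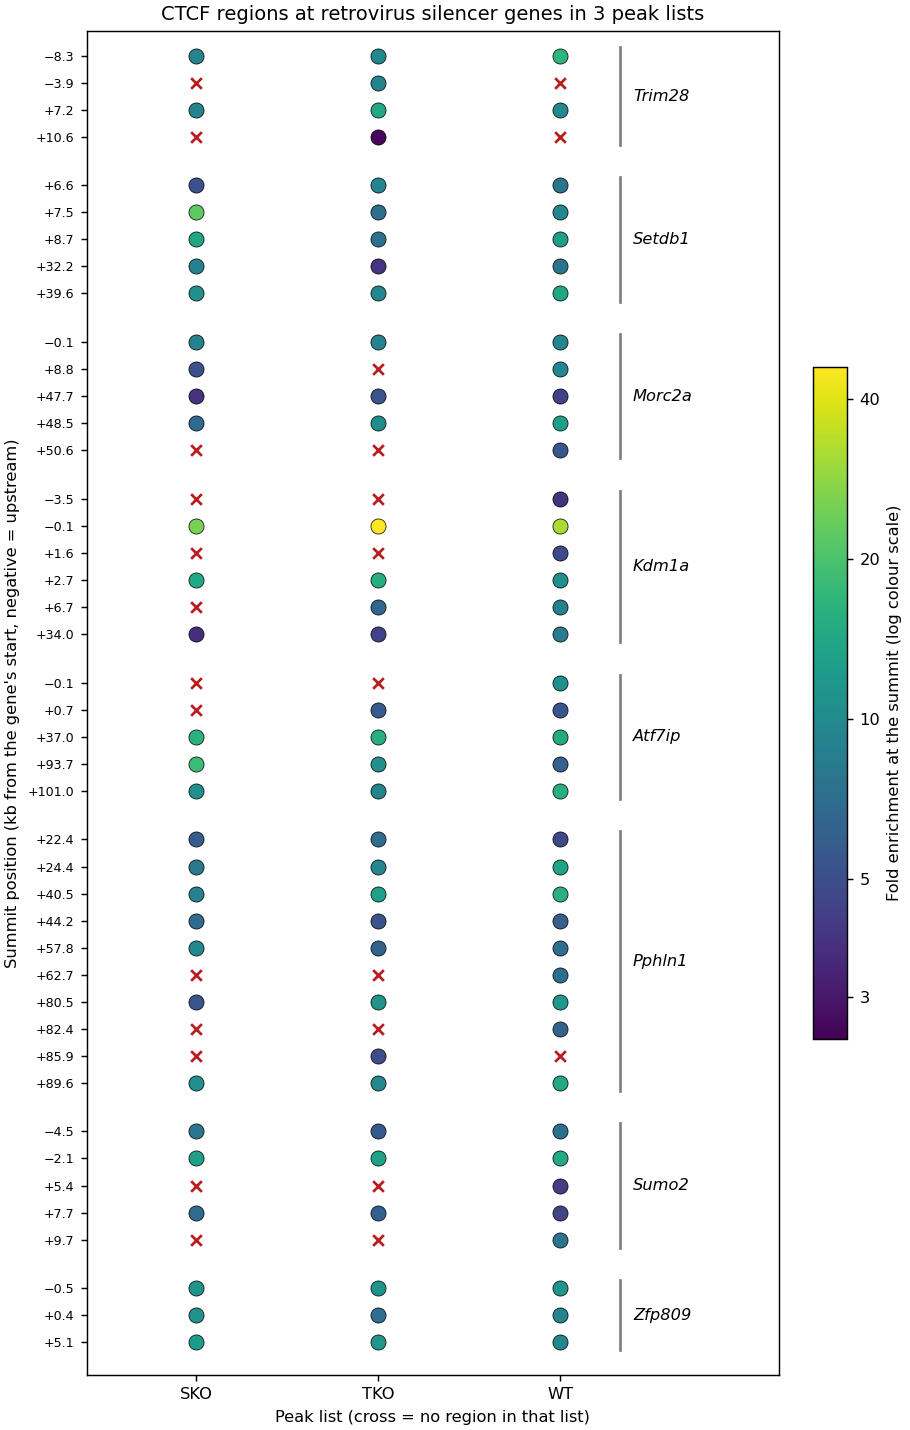
Every place with a CTCF region at the 9 genes (rows, by summit distance in kb from the gene's start) in the SKO, TKO and WT lists (columns), coloured by fold enrichment on a log scale, with a cross where a list has no region. Setdb1 and Zfp809 have no cross, and the 10 WT regions missing from SKO include 2 at the start of Atf7ip.

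Missing regions were mostly weak ones. Of the 16 WT regions at the 9 genes above the median −log10 q of the WT list, SKO lacked 1 and TKO lacked 1, in both cases the region at the start of Atf7ip. It stood at percentile 50.1 of that list, barely above the median. In its decile of the WT list 2.11% of regions were missing from SKO and 1.58% from TKO. Over all WT regions above the median the shares were 0.510% for SKO and 0.355% for TKO. Of the 25 WT regions below the median SKO lacked 9 and TKO lacked 8, and over the whole list the shares there were 43.3% and 37.6%. The next strongest of the missing ones were the Kdm1a region 6.68 kb from the start, missing from SKO, and the Morc2a region 8.76 kb from the start, missing from TKO, at −log10 q 18.6 and 18.5 in WT. Both lay in decile 4, where 24.6% of WT regions were missing from SKO and 19.2% from TKO. The genome-wide background was 0.778 times that of WT in SKO and 1.03 times in TKO. Sequencing depth was not measured directly, and its part in these counts was not tested.

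**Figure D4:**
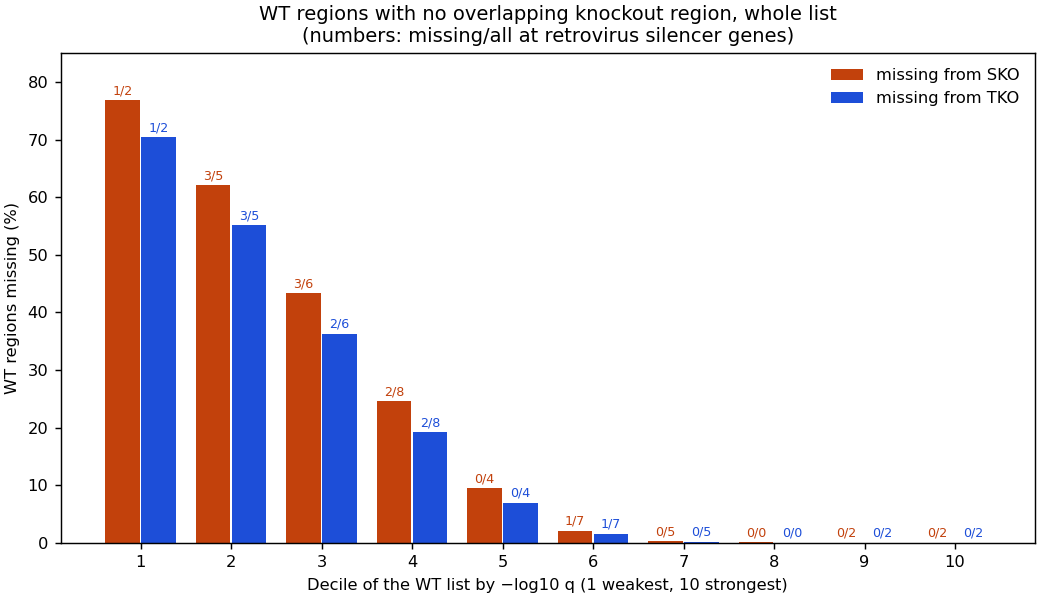
Share of all WT regions with no overlapping region in SKO (left bar) or TKO (right bar), in percent, by decile of the WT list from weakest to strongest −log10 q, with the number missing out of all WT regions at the 9 genes above each bar. The shares go from 76.9% and 70.4% in the weakest decile to 2.11% and 1.58% in decile 6, which holds the Atf7ip start region, the strongest of the missing ones.

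Where a region was in 2 lists its summit was placed almost alike. Only overlapping intervals were compared, which by itself limits how far apart summits can lie. No shift over the whole lists is given, so the closeness is not particular to these genes. Between SKO and WT the 30 summits of the SKO regions lay a median of 13.5 bases from the WT summit, 27 of them within 50 bases. Between TKO and WT the median over 32 was 11.5 bases, with 30 within 50 bases, and between SKO and TKO it was 12.0 bases over 29, with 26 within 50 bases. Among these, the summits measured from TKO regions to WT lay at most 457 bases apart, at the Zfp809 region whose 2 summits swapped rank. Measured from the other list, shifts were wider at the Zfp809 interval that SKO gives as one: the second WT region there lay 632 bases and the second TKO region 643 bases from the stronger SKO summit.

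Other genes of retroviral silencing were taken from 6 lists with 41 genes, none of them among the 9. Together they had 131 regions in SKO, 145 in TKO and 154 in WT. TKO lacked 22 of the 154 WT regions (14.3%) and SKO lacked 30 (19.5%), while 14 TKO regions (9.66%) and 8 SKO regions (6.11%) had no WT region. SKO lacked 25 of the 145 TKO regions (17.2%), and 11 of 131 SKO regions (8.40%) had no TKO region. Over the whole WT list SKO lacked 21.9% and TKO 19.0%. Of the whole TKO list 7.49% had no WT region and 14.5% no SKO region. Of the whole SKO list 6.59% had no WT region and 10.4% no TKO region. At KRAB zinc finger genes and TRIM relatives SKO lacked 7 of 17 WT regions (41.2%) and TKO lacked 4 (23.5%). Of the SUMO pathway genes, SKO lacked 7 of 43 WT regions (16.3%) and TKO lacked 5 (11.6%). Among H3K9 methyltransferase and HP1 genes SKO lacked 5 of 30 (16.7%) and TKO 3 (10.0%). Among histone chaperones and remodellers SKO lacked 4 of 23 (17.4%) and TKO 3 (13.0%), and among LSD1 partners and other repressors SKO lacked 4 of 31 (12.9%) and TKO 6 (19.4%). At the other HUSH and MORC genes SKO lacked 3 of 12 WT regions (25%) and TKO lacked 1 (8.33%).

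Single genes of these lists showed the range. Trim33, a relative of Trim28, had 2 regions in SKO, 4 in TKO and 1 in WT, and 3 of the 4 in TKO had no WT region. Cbx5, which encodes the heterochromatin protein HP1 alpha, had 10 in SKO, 7 in TKO and 8 in WT, and 3 of the 10 in SKO had no WT region and 3 had no TKO region. Pias1, a SUMO ligase gene, had 7 in SKO, 9 in TKO and 9 in WT, with 3 WT and 4 TKO regions missing from SKO. Both WT regions of the SUMO protease gene Senp6 were missing from SKO. Atrx, a chromatin remodeller gene, had 2 in SKO, 2 in TKO and 4 in WT, with 2 WT regions missing from each knockout. Sae1, which encodes a subunit of the SUMO-activating enzyme, had 10 in SKO, 11 in TKO and 11 in WT, with 2 WT regions missing from TKO and 2 TKO regions absent from WT. Zmym2, a zinc finger gene whose product partners LSD1, had 6 in SKO, 5 in TKO and 7 in WT, with 2 WT regions missing from TKO. Rcor2, a corepressor gene of the CoREST family, had 6 in SKO, 6 in TKO and 5 in WT, with 1 SKO region absent from WT. At 9 marker genes of the feeder fibroblasts SKO lacked 5 (20.0%) and TKO lacked 4 (16.0%) of 25 WT regions. The shares over the whole WT list were 21.9% and 19.0%. These counts do not measure how many feeder cells the samples held.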

How the data were processed

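The deposited files are 3 peak lists, 1 per genotype, called by the authors on 3 replicates pooled, ChIP against input, per the labels. Per the submitters' processing notes, the build was mm10 and the tools included MACS2 2.1.2 and Bowtie2 2.3.4; their settings were not given in the sources used here. Each deposited row holds a fold enrichment (a ratio), a −log10 p, a −log10 q (lowest 1.31 in SKO, 1.30 in TKO and WT), a score and a summit. The number of reads in each sample was not used.

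Rows with equal intervals were joined, keeping the summit of highest −log10 q for the values. Regions were shared when they overlapped by at least 1 bp. Genes came from RefSeq (GRCm38.p6) and strands from its promoter table. Pileup t and background b were solved from fold = (t + 1)/(b + 1) and the Poisson tail; t came out whole (relative error under 1e-04) for 60652 of 60660 SKO rows, 63621 of 63641 TKO rows and 72404 of 72406 WT rows with −log10 p under 250. Python 3.11.15, pandas 2.3.3 and SciPy 1.17.1 were used, and the overlap and pileup steps were tested on simulated data. Shares carry exact Clopper-Pearson intervals. All 9 genes are named, with each gene's strongest WT region and each region missing from a list; of other pathway genes, up to 3 per direction with most missing regions, ties in alphabetical order. The members and lists were chosen with earlier results of these data known. Alternatives changed the overlap rule, the peak threshold, the window, the summit that places a region and the joining of rows.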

Additional observations from a re-analysis of the deposited data

How the results depend on the processing

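No paired analysis was possible because the replicates were pooled before peaks were called, and for the same reason no replicate could be left out. The 6 counts of missing regions and the 3 counts of member regions stayed within 1.5 times their values under a −log10 q of at least 5 in both lists, placement by the strongest summit alone and each summit row on its own, and the counts of missing regions also under 50% of the shorter region covered and under that q for the region alone. With summits within 100 bp as the partner rule, TKO regions without a WT region numbered 5, SKO regions without a WT region 1, TKO regions without an SKO region 8 and SKO regions without a TKO region 3. The additions were shared intervals whose strongest summit differed, at Zfp809, Sumo2 and Kdm1a. With gene bodies alone the members numbered 18 in SKO, 21 in TKO and 26 in WT, TKO regions without a WT region 1 and TKO regions without an SKO region 3. With 50 kb either side the members numbered 71 in SKO, 76 in TKO and 94 in WT; WT regions missing from SKO and from TKO numbered 23 each (24.5%), TKO and SKO regions without a WT region 5 and 1, and TKO regions without an SKO region and SKO regions without a TKO region 9 and 5. These windows hold fewer or more regions by construction. The Atf7ip start region was missing from SKO and TKO under each partner rule. The precision of weak regions is low: a listed pileup of 8 in SKO has a counting interval of 3.45 to 15.8, and the part of depth in the counts of missing regions was not tested.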
